A study of Arabidopsis thaliana with 8 samples.

Results

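Expression of 9 members of the *SMALL AUXIN UP RNA* (*SAUR*) family was examined across the 4 groups of the RNA-Seq experiment: *SAUR14* (AT4G38840), *SAUR15* (AT4G38850), *SAUR16* (AT4G38860), *SAUR6* (AT2G21210), *SAUR12* (AT2G21220), *SAUR8* (AT2G16580), *SAUR9* (AT4G36110), *SAUR10* (AT2G18010) and *SAUR25* (AT4G13790). They were taken by locus from the 33518 loci of the count table, in which 80 loci carry a *SAUR* number, and all 9 members passed the filter on low counts. The groups were *iaa3/shy2-2* (*iaa3*) seedlings with brassinolide (BL, an active brassinosteroid, BR), *iaa3* seedlings with mock solution, wild type (Col-0) seedlings with BL, and wild type seedlings with mock solution, with 2 libraries in each. The *shy2-2* allele is a gain-of-function mutation that stabilises IAA3, a repressor of auxin response, and the mutant is in the Col-0 background. All seedlings, the mock controls included, spent 5 days in darkness on medium with 2 µM propiconazole (PPZ), which inhibits BR biosynthesis, and BL was given at 100 nM for 4 hr.

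*SAUR* genes encode small proteins, and the mRNAs of many of them appear within minutes of an auxin stimulus and are short-lived. Several SAUR proteins inhibit the PP2C.D phosphatases, which otherwise dephosphorylate the proton pumps of the plasma membrane. With the phosphatases inhibited, the pumps acidify the cell wall and the cell can elongate, as in the hypocotyl of a dark-grown seedling. Auxin induces many *SAUR* genes by removing Aux/IAA proteins such as IAA3 from auxin response factors (ARFs). BR acts on gene expression through BZR1 and related factors. *SAUR15*, also known as *SAUR-AC1*, is a classical auxin-induced gene, SAUR9 is one of the proteins known to inhibit PP2C.D phosphatases, and *SAUR10* promotes elongation when overexpressed. The comparisons ask how BL changed these genes in each genotype and how their level and BL response differed in *iaa3*.

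The members of 2 clusters are *SAUR14* to *SAUR16* and *SAUR6* with *SAUR12*. *SAUR14*, *SAUR15* and *SAUR16* are neighbours on chromosome 4, at chr4:18124978-18125559, chr4:18126057-18126829 and chr4:18130237-18131284 in the RefSeq annotation of TAIR10.1. *SAUR6* and *SAUR12* lie on chromosome 2 at chr2:9084628-9086029 and chr2:9089226-9090052. The single members are *SAUR8* at chr2:7184422-7187009, *SAUR10* at chr2:7833782-7834653, *SAUR9* at chr4:17089934-17090873 and *SAUR25* at chr4:7999516-8000372. *SAUR14* and *SAUR15* are transcribed away from each other, and the 497 bases between their starts (chr4:18125560-18126056) serve as upstream sequence of both genes.

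The 300 bases upstream of the annotated start are shown for 5 genes that the results turn on: *SAUR15* and *SAUR6* as BL-responsive genes with a stretch in common, *SAUR9* for its response in both genotypes, *SAUR16* for its lack of the motifs searched, and *SAUR8* as the member not called with BL. Each is written 5′ to 3′ on the strand of the gene, and capitals mark the motif CACATG, which reads CATGTG on the other strand, and the motif TGTCTC, which reads GAGACA.
*SAUR15* promoter, chr4:18125757-18126056, plus strand: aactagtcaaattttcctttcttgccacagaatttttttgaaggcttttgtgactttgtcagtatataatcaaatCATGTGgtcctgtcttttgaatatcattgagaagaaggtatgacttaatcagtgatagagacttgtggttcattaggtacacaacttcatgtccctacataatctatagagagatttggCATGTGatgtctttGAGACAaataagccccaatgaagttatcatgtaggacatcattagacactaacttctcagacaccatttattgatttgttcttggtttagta
*SAUR6* promoter, chr2:9086030-9086329, minus strand: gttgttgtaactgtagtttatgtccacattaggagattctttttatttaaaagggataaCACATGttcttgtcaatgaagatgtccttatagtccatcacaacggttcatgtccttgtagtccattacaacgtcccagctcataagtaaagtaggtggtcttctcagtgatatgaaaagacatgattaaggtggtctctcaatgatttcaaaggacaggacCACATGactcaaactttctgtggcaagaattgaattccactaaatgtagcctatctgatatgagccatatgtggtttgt
*SAUR9* promoter, chr4:17089634-17089933, plus strand: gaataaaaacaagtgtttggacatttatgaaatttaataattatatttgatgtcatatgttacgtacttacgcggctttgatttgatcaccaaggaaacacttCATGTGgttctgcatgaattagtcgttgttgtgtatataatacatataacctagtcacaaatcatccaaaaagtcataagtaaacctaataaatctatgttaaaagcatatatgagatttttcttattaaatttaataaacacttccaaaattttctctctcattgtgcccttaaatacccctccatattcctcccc
*SAUR16* promoter, chr4:18129937-18130236, plus strand: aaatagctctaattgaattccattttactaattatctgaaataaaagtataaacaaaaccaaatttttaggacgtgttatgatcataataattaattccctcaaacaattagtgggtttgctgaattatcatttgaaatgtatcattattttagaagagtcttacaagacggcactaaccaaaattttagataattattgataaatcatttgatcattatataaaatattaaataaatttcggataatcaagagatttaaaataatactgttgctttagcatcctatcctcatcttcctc
*SAUR8* promoter, chr2:7187010-7187309, minus strand: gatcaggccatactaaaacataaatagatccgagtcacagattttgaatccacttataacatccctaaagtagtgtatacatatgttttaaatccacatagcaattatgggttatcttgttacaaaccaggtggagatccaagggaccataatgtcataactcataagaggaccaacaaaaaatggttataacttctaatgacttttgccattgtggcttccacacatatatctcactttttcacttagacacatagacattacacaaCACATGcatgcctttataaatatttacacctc

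CACATG (the HUD motif, one of the E-boxes bound by BZR1 and PIF factors) was found on either strand in 6 of the 9 promoters, against 13.1% of 27443 RefSeq promoters of the same length. It occurred at 2 positions each in *SAUR14*, *SAUR15* and *SAUR6*, and at 1 position in *SAUR8*, *SAUR9* and *SAUR25*. The windows of *SAUR14* and *SAUR15* overlap, and 1 copy in the overlap is counted for both. *SAUR10*, *SAUR16* and *SAUR12*, which were called higher with BL in wild type, lacked the motif, while *SAUR8*, which was not called, held it. TGTCTC, the canonical auxin response element, was found in *SAUR15* alone of the 9, against 13.0% of all promoters. The core TGTC, which every TGTCTC and TGTCGG contains, was in 8 of the 9, all but *SAUR16*, against 80.8% of all promoters. None of the 9 held TGTCGG (4.91% of all promoters), CACGTG (the G-box, 7.09%), CGTGTG (6.11%) or CGTGCG (1.78%). The shared upstream region of *SAUR14* and *SAUR15* held 3 copies of CACATG, 10 of TGTC and 1 of TGTCTC. The longest stretch common to 2 member promoters that do not overlap was GACAGGACCACATGA, of 15 bases, in *SAUR6* and in the region between *SAUR14* and *SAUR15*, where it reads TCATGTGGTCCTGTC on the strand of *SAUR15*. Of all 27443 promoters only those of these 3 genes held it (0.0109%). These matches describe the letters in the windows and are not binding sites.

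The 8 libraries held between 18107519 and 23183988 counts each, with a median of 22316700, and TMM factors lay between 0.948 and 1.08. Counts of 3 corresponded to 0.120 to 0.172 CPM (counts scaled to a common library size), depending on the library. *IAA3* mRNA was lower in all 4 *iaa3* libraries (198 to 306 counts) than in all 4 wild type libraries (997 to 2874), although the *shy2-2* mutation acts on the protein and its label is not checked by the mRNA. *PORA*, a marker of dark-grown seedlings, had 426 to 1170 CPM in every library, and *PORB* 1536 to 2128 CPM. Of the 4 genes of light-grown green tissue, the antenna genes *LHCB1.1* (4.48 to 19.9 CPM), AT1G29910 (2.82 to 22.9 CPM) and *LHCB2.1* (44.9 to 91.1 CPM) were detected, as was *RBCS1A*, for the small subunit of Rubisco (2052 to 2515 CPM). Markers of root hairs (5 genes, summed level 22.9 to 36.3 CPM) and of the root endodermis (5 genes, 27.0 to 120.4 CPM) were also detected, with none at 0. Both *iaa3* BL libraries stood apart in stress genes: 15 heat shock genes summed to 1394 and 1625 CPM there, against 170 to 323 CPM in the other 6 libraries. The 14 hypoxia genes summed to 6614 and 7050 CPM in *iaa3* BL, 2970 and 1818 in *iaa3* mock, 446 and 512 in wild type BL, and 1571 and 452 in wild type mock, so that replicate 1 was the higher in each mock group. In these bulk samples, fewer cells of a type and less RNA per cell cannot be told apart.

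BL raised 8 of the 9 genes in wild type. The level of *SAUR10* rose 36.8-fold, *SAUR15* 27.3-fold, *SAUR9* 15.4-fold, *SAUR16* 12.5-fold and *SAUR25* 11.3-fold, and *SAUR6*, *SAUR14* and *SAUR12* rose 8.10-fold, 5.80-fold and 4.88-fold. *SAUR8* was not called. Calls required a 1.5-fold change and an unadjusted p-value under 0.01 in edgeR, which 14.3% of the 20415 tested genes met in this comparison, 8.45% as higher and 5.87% as lower. The median log2 fold change of the 9 genes was 3.50, against −0.01 over all tested genes. No member was lower at an unadjusted p under 0.05 in edgeR or was called lower by DESeq2. In the 8 genes called no wild type BL library overlapped a wild type mock library, as was so for higher levels in 32.5% and for lower levels in 33.1% of all tested genes.

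In the chromosome 4 cluster, *SAUR15* had 1 and 1 counts in *iaa3* BL, 2 and 1 in *iaa3* mock, 218 and 231 in wild type BL, and 12 and 5 in wild type mock. It was at or near 0 in both *iaa3* groups and above 12 counts only in wild type BL. *SAUR16* had 1 and 0 counts in *iaa3* BL, 3 and 1 in *iaa3* mock, 495 and 439 in wild type BL, and 47 and 31 in wild type mock. It followed the order of *SAUR15* at a higher level in wild type. *SAUR14* had 15 and 5 counts in *iaa3* BL, 13 and 5 in *iaa3* mock, 234 and 248 in wild type BL, and 49 and 38 in wild type mock. Unlike its 2 neighbours it stayed above 3 counts in every *iaa3* library, with the *iaa3* groups overlapping each other and lying below both wild type groups. On the log2 scale BL raised *SAUR15* by 4.77 (standard error, SE, 0.28), *SAUR16* by 3.65 (SE 0.21) and *SAUR14* by 2.54 (SE 0.28) in wild type.

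In the chromosome 2 cluster, *SAUR6* had 12 and 5 counts in *iaa3* BL, 8 and 6 in *iaa3* mock, 385 and 423 in wild type BL, and 47 and 58 in wild type mock. The *iaa3* groups overlapped and both lay below wild type mock. *SAUR12* had 10 and 21 counts in *iaa3* BL, 10 and 9 in *iaa3* mock, 66 and 69 in wild type BL, and 12 and 17 in wild type mock. Its level in *iaa3* BL (0.574 and 1.05 CPM) overlapped that in wild type mock (0.544 and 0.678 CPM), while wild type BL lay above and *iaa3* mock (0.447 and 0.408 CPM) below all other libraries. The log2 fold change with BL in wild type was 3.02 (SE 0.18) for *SAUR6* and 2.29 (SE 0.29) for *SAUR12*. Its neighbour *SAUR7* (AT2G21200), whose annotated model overlaps that of *SAUR6* on the same strand, had 0 counts in all 4 *iaa3* libraries, 141 and 114 counts in wild type BL, and 19 and 13 in wild type mock. How the authors counted reads from the overlap is not given in the sources used here, so the split between *SAUR6* and *SAUR7* is uncertain.

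Of the unclustered genes, *SAUR9* had 86 and 94 counts in *iaa3* BL, 24 and 29 in *iaa3* mock, 800 and 626 in wild type BL, and 56 and 41 in wild type mock. It was the one member whose 4 groups were all apart from each other, and it had the highest level in wild type BL, 31.9 ± 5.56 CPM (SD, n = 2). *SAUR10* had 1 and 2 counts in *iaa3* BL, 1 and 2 in *iaa3* mock, 238 and 226 in wild type BL, and 10 and 3 in wild type mock. *SAUR25* had 1 and 2 counts in *iaa3* BL, 3 and 0 in *iaa3* mock, 124 and 104 in wild type BL, and 11 and 10 in wild type mock. Both genes, like *SAUR15* and *SAUR16*, never exceeded 3 counts in *iaa3*. *SAUR8* had 8 and 5 counts in *iaa3* BL, 13 and 6 in *iaa3* mock, 34 and 25 in wild type BL, and 34 and 24 in wild type mock. For *SAUR8* the 2 treatments overlapped within each genotype, and the genotypes did not overlap. With BL in wild type the log2 fold changes were 5.20 (SE 0.31) for *SAUR10*, 3.95 (SE 0.19) for *SAUR9*, 3.50 (SE 0.33) for *SAUR25* and 0.09 (SE 0.36) for *SAUR8*.

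For the 8 genes called, the adjusted p ranged between 8.22e-08 (*SAUR9*) and 0.000136 (*SAUR12*), and it was 0.873 for *SAUR8* (edgeR's quasi-likelihood test, adjusted by Benjamini-Hochberg over all tested genes, as for each adjusted p that follows). Since the labels do not say that the 2 libraries of a group came from separate cultures, the p-values measure only the spread between these libraries, which may be technical. The size of the rise depended on the wild type mock libraries for the genes that were lowest there. Without wild type mock replicate 1 the log2 fold change was 6.38 for *SAUR10* and 5.62 for *SAUR15*, and without wild type mock replicate 2 it was 4.50 and 4.20. Other lists moved in the same comparison: all 5 endodermis genes were called lower with BL in wild type (summed level 46.5 and 43.6 CPM in wild type BL, against 108.2 and 120.4 CPM in wild type mock), as were 6 of the 15 heat shock genes and 2 of the 14 hypoxia genes. *PORA* (1114 and 1170 CPM in wild type BL, against 628 and 674 CPM in wild type mock) and *LHCB1.1*, 1 of the 4 green tissue genes, were called higher. Their part in the rise of the *SAUR* genes was not tested. Without replicate 1 of both mock groups, the libraries with more hypoxia gene counts, 8 members were called higher.

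**Figure D1:**
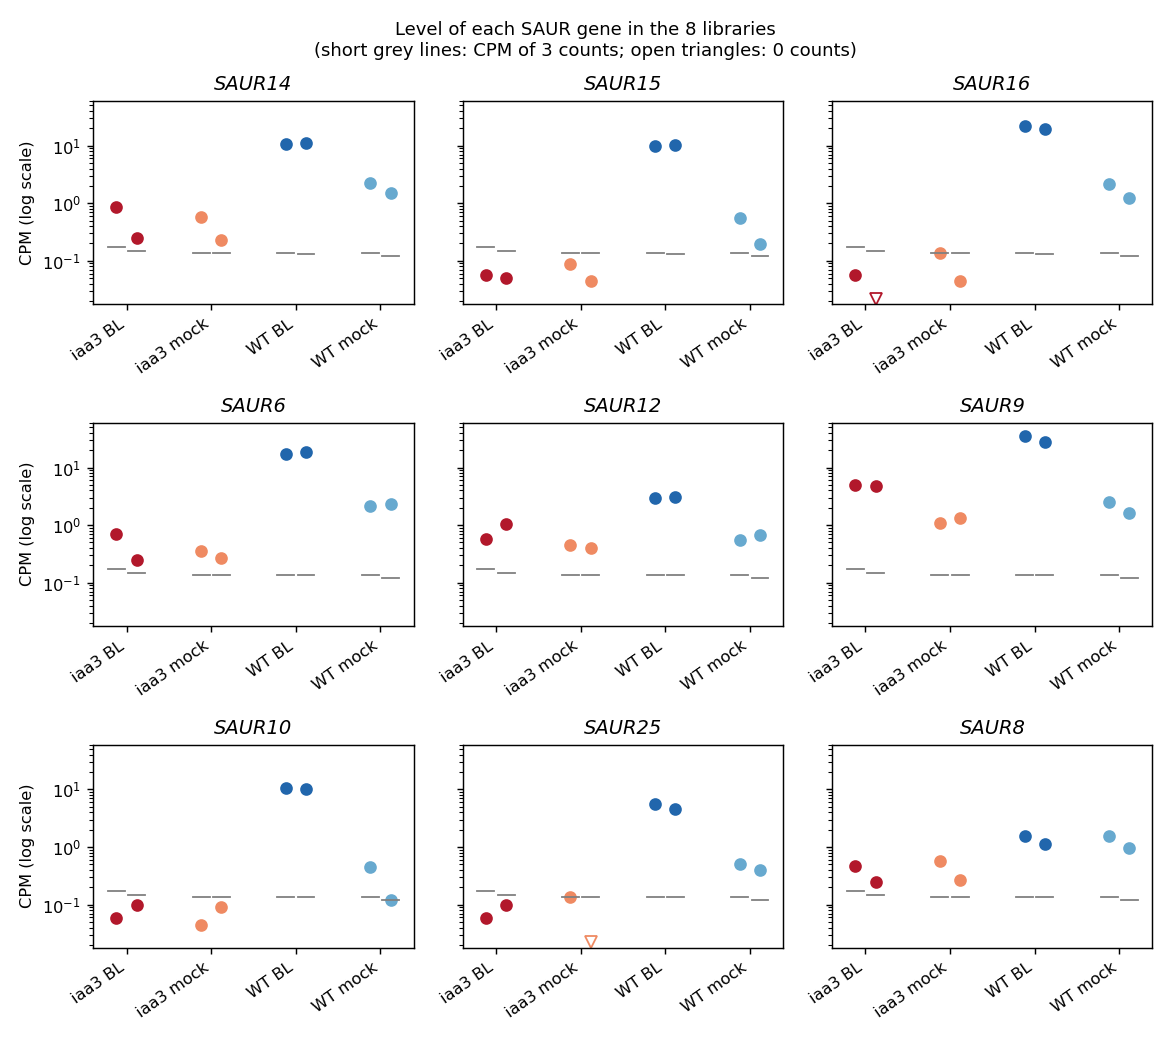
Level of the 9 *SAUR* genes in every library, as CPM on a log scale (each point is 1 library, and the short grey lines mark the CPM of 3 counts). *SAUR15*, *SAUR16*, *SAUR10* and *SAUR25* lie at or below the 3-count lines in all 4 *iaa3* libraries, *SAUR9* is separate in all 4 groups, and the BL and mock libraries of *SAUR8* overlap within each genotype.

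Levels of different genes were compared as CPM per kilobase of annotated exon. In wild type BL *SAUR9* was highest, with 38.1 and 29.7 CPM per kilobase, followed by *SAUR16* (21.2 and 18.7) and *SAUR14* (19.0 in replicate 2), whose libraries overlapped. Next came *SAUR6* (12.3 and 13.5) and *SAUR15* (12.6 and 13.3), whose libraries overlapped, and then *SAUR10* (12.2 and 11.6), both of whose libraries lay below theirs. *SAUR25* (6.48 and 5.42), *SAUR12* (3.57 and 3.73) and *SAUR8* (1.70 and 1.25) were lower, and these 3 did not overlap with each other or with the genes above. The order in wild type mock was another one, with a mean of 3.21 CPM per kilobase for *SAUR14*, 2.22 for *SAUR9*, 1.61 for *SAUR16*, 1.58 for *SAUR6*, 1.40 for *SAUR8*, 0.739 for *SAUR12*, 0.524 for *SAUR25*, 0.481 for *SAUR15* and 0.329 for *SAUR10*. In *iaa3* BL the mean of *SAUR9* was 5.12 CPM per kilobase of exon and that of each other member was below 1. These orders depend on the length used. Per kilobase of coding sequence the wild type BL means were 101.3 for *SAUR9*, 65.7 for *SAUR16*, 60.85 for *SAUR6*, 37.19 for *SAUR15* and 35.94 for *SAUR14*. By that measure *SAUR6* was highest in wild type mock (7.483), ahead of *SAUR9* (6.627), *SAUR14* (6.23) and *SAUR16* (5.296).

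In *iaa3*, *SAUR9* was the one member called with BL. Its level rose 4.01-fold, with a log2 fold change of 2.00 (SE 0.26, adjusted p = 0.000418, edgeR's Benjamini-Hochberg-adjusted quasi-likelihood test). In this comparison 8.15% of all tested genes were called, 4.69% as higher and 3.46% as lower. DESeq2 called *SAUR9* alone as well, and no member was lower in either tool or at an unadjusted p under 0.05 in edgeR. All 15 heat shock genes and 7 of the 14 hypoxia genes were called higher in *iaa3* with BL too, and 2 of the 5 endodermis genes lower, and their part in the rise of *SAUR9* was not tested. *SAUR12* had the next largest log2 fold change, 0.93 (SE 0.39), and its *iaa3* BL and *iaa3* mock libraries did not overlap, but it was not called (unadjusted p = 0.0376, adjusted p = 0.133, edgeR's Benjamini-Hochberg-adjusted quasi-likelihood test). *SAUR9* and *SAUR12* were thus the 2 members that did not overlap between treatments in *iaa3*, where 31.7% of all tested genes were higher without overlap. *SAUR6*, *SAUR14* and *SAUR8* had log2 fold changes of 0.52 (SE 0.49), 0.40 (SE 0.61) and −0.29 (SE 0.58), with adjusted p-values between 0.519 and 0.783 in edgeR's Benjamini-Hochberg-adjusted quasi-likelihood test. For *SAUR15*, *SAUR16*, *SAUR10* and *SAUR25* no fold change can be given, since both *iaa3* groups had at most 3 counts per library, with 0 to 2 in *iaa3* BL.

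**Figure D2:**
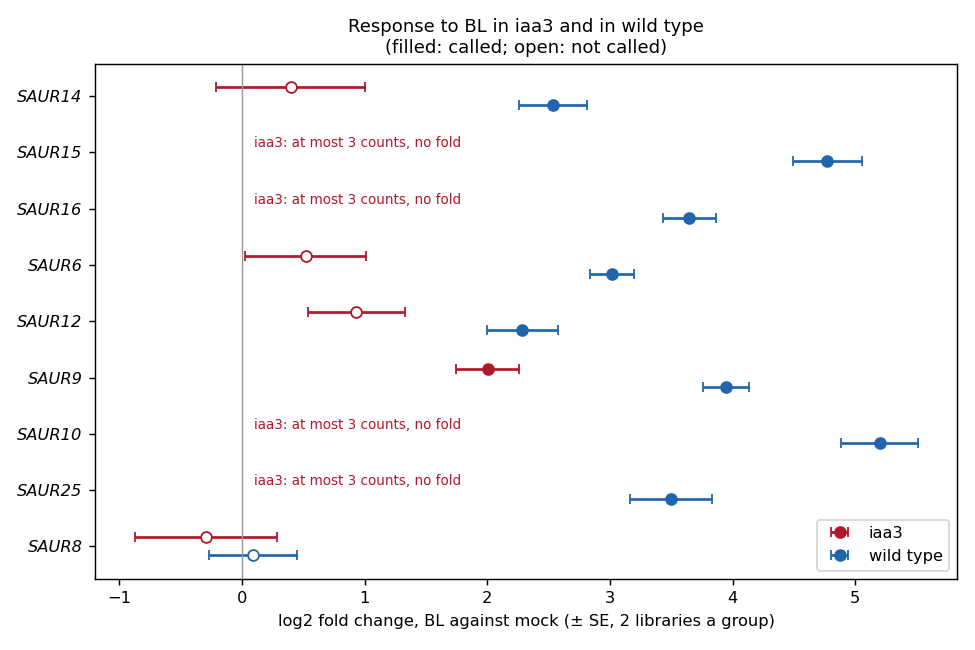
Log2 fold change of the 9 *SAUR* genes with BL against mock, in *iaa3* (red) and in wild type (blue), with bars of 1 SE from edgeR's fit to 2 libraries a group. In wild type 8 genes were called (filled points, 2.29 to 5.20), in *iaa3* *SAUR9* alone (2.00), and 4 genes have no fold in *iaa3*.

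The difference between the 2 BL responses was the interaction term of the model, with calls at an adjusted p under 0.05 in edgeR. The response was smaller in *iaa3* for 5 of the 9 genes, and none was called larger there by edgeR's quasi-likelihood test or DESeq2, or larger at an unadjusted p under 0.05. Of all tested genes 17.6% were called in this test, 9.95% as lower and 7.63% as higher. *SAUR9* had a response smaller by 1.94 on the log2 scale in *iaa3* (difference −1.94, SE 0.35, adjusted p = 0.0038) and *SAUR6* by 2.50 (difference −2.50, SE 0.56, adjusted p = 0.0119, both from edgeR's Benjamini-Hochberg-adjusted quasi-likelihood test). *SAUR15*, *SAUR16* and *SAUR10* were called as well, with adjusted p = 0.026, 0.0328 and 0.0339 (edgeR's Benjamini-Hochberg-adjusted quasi-likelihood test), but no size can be given because of their counts in *iaa3*. *SAUR14* (−2.14, SE 0.69, adjusted p = 0.0574) and *SAUR12* (−1.35, SE 0.51, adjusted p = 0.096) missed the threshold of edgeR's Benjamini-Hochberg-adjusted quasi-likelihood test, as did *SAUR25* (adjusted p = 0.12, no size) and *SAUR8* (−0.39, SE 0.68, adjusted p = 0.748). The number of calls moved with single libraries: 2 of the 9 genes were called without *iaa3* BL replicate 2, without wild type BL replicate 1 or without wild type BL replicate 2, and 1 without *iaa3* mock replicate 1. Without replicate 1 of both mock groups 2 were called. *SAUR9* was called with each library left out (−2.29 to −1.66). The difference of *SAUR6* was −3.35 without *iaa3* BL replicate 1 and −1.91 without *iaa3* BL replicate 2, and its call was lost without *iaa3* mock replicate 1 (−2.29, adjusted p = 0.0894, edgeR). That of *SAUR14* lay between −3.23 (without *iaa3* BL replicate 1) and −1.32 (without *iaa3* mock replicate 1), with a call in 3 of the 8 fits: without *iaa3* BL replicate 1, *iaa3* mock replicate 2 or wild type mock replicate 1. The calls of *SAUR15*, *SAUR16* and *SAUR10* were lost in 5, 5 and 6 of the 8 fits. In the same test all 15 heat shock, 12 of the 14 hypoxia and 4 of the 5 endodermis genes were called higher, and 2 of the 4 green tissue genes and *PORA* lower, and their part was not tested. *SAUR9* thus responded in both genotypes, and its response differed between them. For *SAUR12* and *SAUR14* a difference in BL response between the genotypes was not called in the main fit.

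With BL, *iaa3* had lower levels of all 9 genes than wild type. With *iaa3* set to 3 counts per library, *SAUR16* was at least 129.9-fold lower, *SAUR10* at least 64.5-fold, *SAUR15* at least 62.4-fold and *SAUR25* at least 31.7-fold. These are bounds that follow the levels in wild type BL and do not rank the differences. *SAUR6* was 39.3-fold, *SAUR14* 19.9-fold, *SAUR9* 6.63-fold, *SAUR8* 3.75-fold and *SAUR12* 3.65-fold lower. In this comparison 13.8% of all tested genes were called lower and 11.2% higher, 25% in all. No *iaa3* BL library overlapped a wild type BL library in any of the 9 genes, which was so for lower levels in 38.5% of all tested genes.

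On the log2 scale the difference was −5.30 (SE 0.25) for *SAUR6*, −4.32 (SE 0.36) for *SAUR14*, −2.73 (SE 0.17) for *SAUR9*, −1.91 (SE 0.47) for *SAUR8* and −1.87 (SE 0.29) for *SAUR12*. The adjusted p was highest for *SAUR8*, at 0.0067, and lowest for *SAUR16*, at 5.25e-08 (edgeR's Benjamini-Hochberg-adjusted quasi-likelihood test). The call of *SAUR8* was lost without *iaa3* BL replicate 2 (adjusted p = 0.0654) and without wild type BL replicate 1 (adjusted p = 0.0541, edgeR, Benjamini-Hochberg, in both). The 2 *iaa3* BL libraries differed for *SAUR14* and *SAUR6*: without replicate 1 their log2 fold changes were −5.40 and −6.15, and without replicate 2 they were −3.64 and −4.70. In the same comparison all 15 heat shock genes and all 14 hypoxia genes were called higher in *iaa3*, at the summed levels given above, and their part in the differences of the *SAUR* genes was not tested. Of the 4 light-grown tissue genes 3 were called lower in *iaa3* with BL, as were *PORA* and 2 of the 5 endodermis genes, and their part was not tested either.

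In mock the levels of the same genes were also lower in *iaa3*, though not all were called. How these differences compare with those under BL is the interaction given above. No *iaa3* mock library overlapped a wild type mock library in any of the 9, where 35.1% of all tested genes were lower without overlap, but 6 of the 9 were called, against 17.9% of all tested genes (9.48% lower and 8.47% higher). *SAUR16* was at least 12.5-fold lower, *SAUR25* at least 3.32-fold and *SAUR15* at least 2.75-fold, with *iaa3* again set to 3 counts per library. *SAUR6* (6.95-fold, log2 −2.80, SE 0.34), *SAUR14* (4.53-fold, log2 −2.18, SE 0.45) and *SAUR8* (2.87-fold, log2 −1.52, SE 0.44) were the others called, and over the 6 the adjusted p ranged between 9.95e-05 and 0.0232 (edgeR's Benjamini-Hochberg-adjusted quasi-likelihood test). *SAUR9* (log2 −0.79, SE 0.29, adjusted p = 0.0542), *SAUR12* (log2 −0.52, SE 0.40, adjusted p = 0.345) and *SAUR10* (bound 2.12-fold, adjusted p = 0.0768) were not called by edgeR's Benjamini-Hochberg-adjusted quasi-likelihood test. The count of calls fell to 3 without *iaa3* mock replicate 2 and to 3 without wild type mock replicate 1, and in both cases *SAUR15*, *SAUR25* and *SAUR8* were the genes lost. The call of *SAUR15* was also lost without *iaa3* mock replicate 1 and without either wild type BL library. Without wild type mock replicate 1 the bound of *SAUR15* was 1.48-fold and that of *SAUR10* 0.885-fold, which is no bound on a lower level, and without wild type mock replicate 2 the bound of *SAUR10* was 3.36-fold. Without *iaa3* mock replicate 1 the log2 fold change was −2.997 for *SAUR14* and −2.16 for *SAUR8*, and without *iaa3* mock replicate 2 it was −1.66 and −1.08. In the same comparison all 5 endodermis genes were called lower in *iaa3* (summed level 43.1 and 45.2 CPM in *iaa3* mock, against 108.2 and 120.4 CPM in wild type mock), as were 4 of the 15 heat shock genes, while 4 of the 14 hypoxia genes were called higher, and their part was not tested. No member was called higher in *iaa3*, with BL or in mock, by edgeR or DESeq2, or was higher at an unadjusted p under 0.05 in edgeR.

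**Figure D3:**
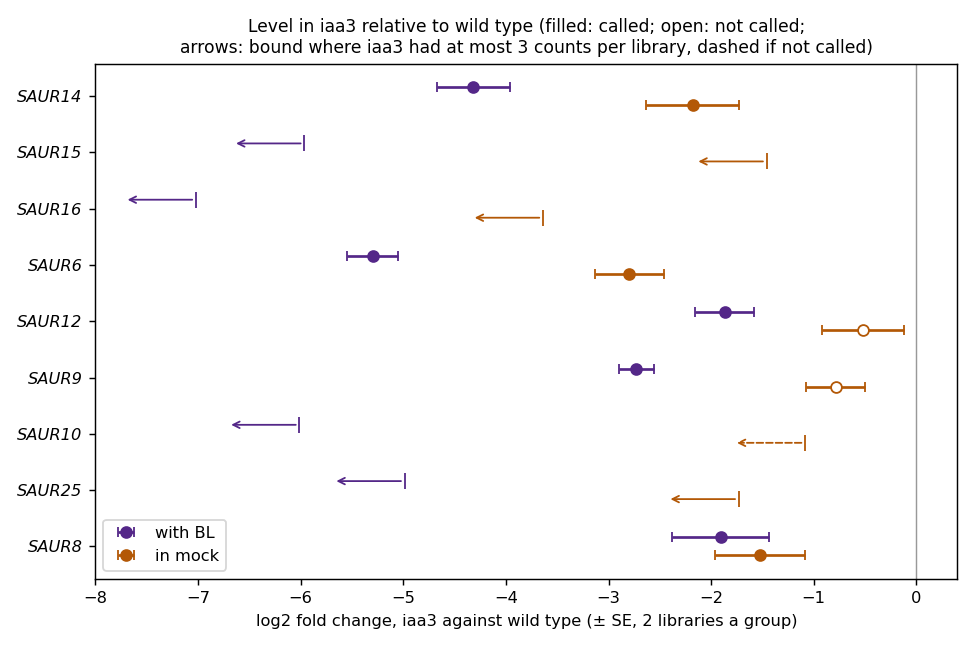
Log2 fold change of the 9 *SAUR* genes in *iaa3* against wild type, with BL (purple) and in mock (brown), with bars of 1 SE, and arrows for bounds where every *iaa3* library had at most 3 counts. All 9 genes were called lower with BL, and 6 in mock, where *SAUR12*, *SAUR9* and *SAUR10* were not.

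*SAUR8* differed from the rest of the members in its pattern. It was lower in *iaa3* by a similar amount with BL (log2 −1.91) and in mock (log2 −1.52), and it was not called with BL in either genotype. For *SAUR9*, *SAUR10* and *SAUR12* the lower level in *iaa3* was called with BL and not in mock, though these genes were lower without overlap in mock as well. The interaction, which compares the 2 differences directly, was called for *SAUR9* and *SAUR10*. It was not called for *SAUR12* (adjusted p = 0.096, edgeR's Benjamini-Hochberg-adjusted quasi-likelihood test). These contrasts share libraries and are given side by side, and the differences between genes were not tested.

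Of the 4 closest pairs by sequence, 2 had unlike counts in *iaa3*. By coding sequence the closest pairs were *SAUR16* and *SAUR12* (85.5% identical), *SAUR10* and *SAUR9* (73.8%), *SAUR15* and *SAUR25* (71.6%) and *SAUR14* and *SAUR6* (71.2%), and the least alike pair had 48.4%. *SAUR16* never exceeded 3 counts in *iaa3*, whereas *SAUR12* had 9 to 21 there. *SAUR10* likewise had 1 or 2 counts in *iaa3*, whereas *SAUR9* had 86 and 94 in *iaa3* BL. In the other pairs the counts in *iaa3* were near each other, with at most 3 for *SAUR15* and *SAUR25* and 5 to 15 for *SAUR14* and *SAUR6*. The pairs cross the clusters, so that *SAUR16* on chromosome 4 is closest to *SAUR12* on chromosome 2, and *SAUR14* to *SAUR6*. The longest exact stretch that a member's transcript shared with any other gene was 176 bases for *SAUR6* (with *SAUR7*, the overlapping model), 100 for *SAUR8* (with AT2G16575, which lies inside the *SAUR8* gene), 36 for *SAUR14* and 30 or fewer for the remaining members. The counts of *SAUR8* may thus hold reads of AT2G16575, and this could not be resolved from the table.

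The genes around the 2 clusters moved less, by their medians, with BL in wild type and in *iaa3* against wild type with BL. Of 24 other loci from AT4G38800 to AT4G38900 and from AT2G21170 to AT2G21260, 14 were tested, and with BL in wild type 2 were called higher, *SAUR7* (log2 3.05, SE 0.29) and AT4G38810 (log2 1.24, SE 0.10). None was called lower by edgeR's quasi-likelihood test or by DESeq2, while 3 were lower at an unadjusted p under 0.05 in edgeR. The median log2 fold change of the 14 was −0.05. In *iaa3* against wild type with BL, *SAUR7* (at least 35.5-fold lower), AT2G21195 (log2 −1.05, SE 0.11) and AT4G38810 (log2 −0.65, SE 0.09) were called lower, and the median was 0.01. None was called higher by edgeR's quasi-likelihood test or DESeq2, and 4 were higher at an unadjusted p under 0.05. With BL in *iaa3* 1 of the 14 was called higher and 1 lower, and in *iaa3* against wild type in mock 1 was called higher and 2 lower. By the interaction 4 of the 14 had a smaller BL response in *iaa3*, against 9.95% of all tested genes. A larger one was called for 0, against 7.63%, while 2 were larger at an unadjusted p under 0.05 in edgeR. *SAUR13* (AT4G38825), on the other side of *SAUR14*, had 0 counts in 7 libraries and 1 in the other. *CRK26* (AT4G38830), the receptor-like kinase gene between *SAUR13* and *SAUR14*, had a log2 fold change of −0.38 (SE 0.32) with BL in wild type and was not called.

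**Figure D4:**
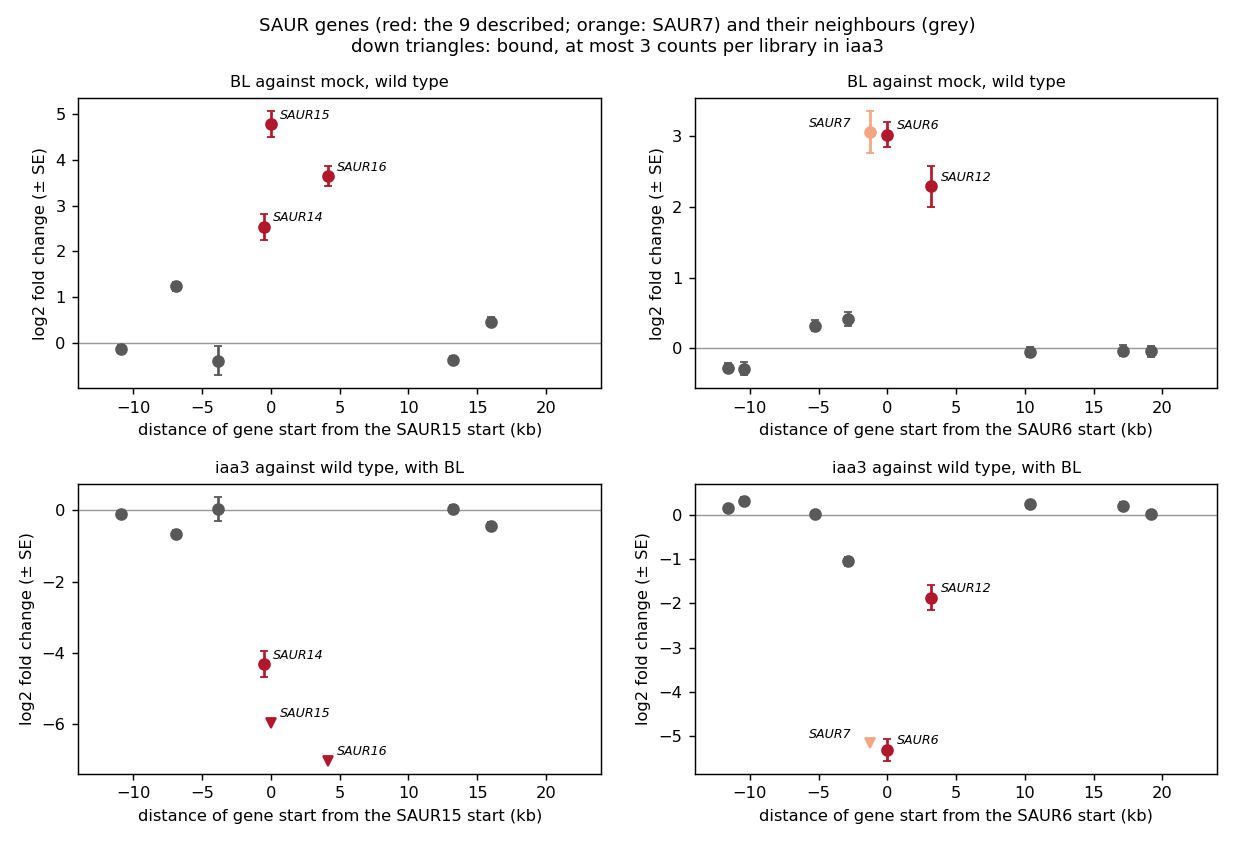
Log2 fold change of tested genes by the distance of their start from that of *SAUR15* (left) or *SAUR6* (right), for BL against mock in wild type (top) and *iaa3* against wild type with BL (bottom), with bars of 1 SE. The *SAUR* genes stand clear of their neighbours, of which only AT4G38810 (1.24) was called with BL in wild type. In *iaa3* against wild type with BL, AT2G21195 (−1.05) and AT4G38810 were the neighbours called, both lower. AT2G21188 was tested but has no model in the annotation used and is not drawn.

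Of the 71 other numbered *SAUR* loci, 59 were tested. With BL in wild type 30 were called higher and 9 lower, with a median log2 fold change of 1.15 (0.96 with low genes at their bound), against 3.50 for the 9 members. In *iaa3* 6 were called higher and 8 lower with BL (median 0.00, or −0.01 over the 42 genes for which a fold or bound can be given). Against wild type, 31 were called lower and 7 higher in *iaa3* with BL (median −1.03 with or without bounds), and 31 lower and 11 higher in mock (median −1.28, or −1.24 with bounds). The BL response was called smaller in *iaa3* for 12 and larger for 1. Among the more highly expressed of them, *SAUR32* (AT2G46690) rose with BL in wild type (log2 1.15, SE 0.08), and *SAUR36* (AT2G45210) fell with BL in wild type (log2 −1.81, SE 0.10) and in *iaa3* (log2 −2.43, SE 0.10). *SAUR77* (AT1G17345) also fell with BL, by 0.95 (SE 0.19) in wild type and by 1.73 (SE 0.20) in *iaa3*. *SAUR78* (AT1G72430), whose protein is known to bind ethylene receptors, rose with BL in *iaa3* (log2 0.86, SE 0.20). In *iaa3* against wild type, *SAUR44* (AT5G03310) was higher with BL (log2 1.26, SE 0.10) and in mock (log2 1.30, SE 0.10), and *SAUR78* was higher with BL (log2 0.96, SE 0.20). *SAUR36* was higher in *iaa3* mock (log2 0.72, SE 0.08). *SAUR55* (AT5G50760) was lower in *iaa3* with BL (log2 −1.03, SE 0.17), as was AT5G01830 (log2 −0.83, SE 0.09), one of the pair of loci that RefSeq names *SAUR21*. The other is AT5G18030. The loci were taken by name, and whether AT5G01830 encodes a SAUR protein was not checked. None of the 9 members had a change in the direction of *SAUR36*, *SAUR77* or *SAUR44* called by edgeR or DESeq2, or at an unadjusted p under 0.05 in edgeR. The genes named here had a mean log2 CPM of 3 or more, which no member reached (highest 2.18, *SAUR9*). Other *SAUR* genes at the levels of the members, among them most of the 30 that rose with BL in wild type, are therefore not named.

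Downstream of the SAUR proteins, the 9 PP2C.D phosphatase genes and the plasma membrane proton pump genes were tested at the mRNA level. With BL in wild type 1 phosphatase gene was called higher (AT4G33920, log2 0.78, SE 0.08) and 2 lower (AT5G66080, log2 −4.54, SE 0.13, and AT5G02760, log2 −0.84, SE 0.09). AT5G66080 had 50 and 57 counts in *iaa3* BL, 609 and 700 in *iaa3* mock, 39 and 44 in wild type BL, and 984 and 1047 in wild type mock. It therefore fell with BL in both genotypes, by 3.37 (SE 0.12) on the log2 scale in *iaa3*, where AT5G02760 fell as well (by 1.27, SE 0.10). AT5G02760 (log2 −1.27, SE 0.10) and AT3G17090 (log2 −0.84, SE 0.08) were called lower in *iaa3* with BL and AT5G66080 higher (log2 0.62, SE 0.18), and in mock AT5G02760 (log2 −0.84, SE 0.09) and AT3G17090 (log2 −0.79, SE 0.08) were called lower. The difference in response was called for AT3G12620 (−0.40, SE 0.11, adjusted p = 0.0272) and AT5G66080 (1.17, SE 0.20, adjusted p = 0.00303, edgeR's Benjamini-Hochberg-adjusted quasi-likelihood test). Of the 11 proton pump genes 9 were tested and none was called with BL in either genotype by edgeR's quasi-likelihood test or DESeq2. At an unadjusted p under 0.05 in edgeR, 4 were lower with BL in wild type, and in *iaa3* 2 were higher and 2 lower. *HA2* (AT4G30190), a major pump gene, was called lower in *iaa3* in mock (log2 −0.66, SE 0.10). With BL it had 894 and 779 CPM in *iaa3* and 1287 and 1197 CPM in wild type, which was not called. *HA7* (AT3G60330) was called higher in *iaa3* with BL (log2 0.59, SE 0.17). In mock it had 9.88 and 9.49 CPM in *iaa3* and 7.98 and 8.01 CPM in wild type, which was not called.

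The gene profiles most like that of *SAUR9*, the member with the highest mean level, were sought among 13026 non-member genes. Only genes with a mean log2 CPM of 3 or more were candidates. *SAUR9* itself had 2.18, so genes at its own level were not searched. Likeness was the root mean square difference of centred log2 CPM over the 8 libraries. The nearest candidates were *LRX2* (AT1G62440, a cell wall extensin of the leucine-rich repeat type, 0.37), AT1G30690 (0.45), *RD28* (AT2G37180, an aquaporin, 0.57), *PRP2* (AT2G21140, a proline-rich cell wall protein, 0.59) and *ROPGEF11* (AT1G52240, an activator of ROP GTPases, 0.66). Among the members, which all lay below that limit, the nearest was *SAUR12*, at 0.87, and the farthest *SAUR16*, at 2.06. *LRX2* had 205 and 292 counts in *iaa3* BL, 105 and 179 in *iaa3* mock, 3384 and 2509 in wild type BL, and 229 and 206 in wild type mock. As with *SAUR9*, wild type BL stood far above the other 3 groups. This likeness describes these libraries and was not tested.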

How the data were processed

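The deposited values are raw, unnormalized counts of reads at each locus in 1 table that covers the 8 TruSeq libraries. The submitters' processing notes name CASAVA 1, TopHat, HTSeq and TAIR9, without their roles. Strand use, annotation and the treatment of multi-mapping reads are not given in the sources used here, so counts of overlapping or near-identical genes are uncertain. Groups came from the sample labels. The table has 0 columns without a library.

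The analysis used edgeR 4.0.16 (R 4.3.3). filterByExpr kept 20415 genes, TMM set the scaling, and a quasi-likelihood model of the 4 group means was fitted to all 8 libraries at once, with Benjamini-Hochberg adjustment over these genes. Calls took a 1.5-fold change with p under 0.01 before adjustment, as in the study's methods, and the interaction at an adjusted p-value under 0.05. CPM used TMM-scaled library sizes, and SEs were derived from the F statistic. A group with no library above 3 counts gave a bound, set against 3 counts in each library, and 2 such groups gave no fold. Such a bound is a ratio to a fixed floor and covers neither counting error nor the spread between libraries. DESeq2 1.42.0, other scalings, no filter, the compared groups alone, an adjusted p-value, a replicate block and each library left out were alternatives. Same-group libraries differed by more than sampling noise and were kept apart. The chi-square per degree of freedom was 3.93 in wild type BL, 4.485 in *iaa3* mock, 5.645 in *iaa3* BL and 12.2 in wild type mock. The fit was tested on simulated data.

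All 9 members were named in every comparison, with the other *SAUR* genes that had the 2 largest rises and 2 largest falls among called, non-overlapping genes (mean log2 CPM 3 or more), called PP2C.D and proton pump genes, the loci around both clusters, and the 5 profiles nearest to *SAUR9*. *CRK26* and *SAUR13* belong to the loci around the clusters. Members and lists were chosen with earlier results of these data known. Symbols, gene models and promoter sequences came from RefSeq (TAIR10.1), read by locus with Python 3.11.15 and Biopython 1.88. The 300 bases end at the outermost annotated start and hold no transcribed base of the gene, in place of a window across the start.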

Additional observations from a re-analysis of the deposited data

Results flagged for a closer look

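For 5 genes the BL response differed between *iaa3* and wild type by the interaction test (edgeR's Benjamini-Hochberg-adjusted quasi-likelihood test). The difference was −1.94 on the log2 scale for *SAUR9*, with an SE of 0.35 and an adjusted p of 0.0038, and −2.50 for *SAUR6*, with an SE of 0.56 and an adjusted p of 0.0119 (edgeR). For *SAUR15*, *SAUR16* and *SAUR10* the adjusted p was 0.026, 0.0328 and 0.0339 (edgeR), with at most 3 counts in each *iaa3* library, so that no size is given. All 5 genes had a positive log2 fold change with BL in wild type whichever BL library was set against whichever mock library. In *iaa3* the same was so for *SAUR9*.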

How the results depend on the processing

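The counts of members called with BL were 8 in wild type and 1 in *iaa3* under all alternatives run, and 9 or 8 were lower in *iaa3* with BL. The interaction was called for 5, for 1 to 6 with a library left out, and for 2 without both mock libraries of replicate 1, an alternative chosen after seeing the data. In mock the 6 called lower became 3 to 8 with a library left out, 4 with DESeq2, 4 with the compared groups alone and 4 without both mock libraries of replicate 1. The log2 CPM difference between replicates 1 and 2 of a group was correlated across genes with that of each other group. These correlations lay between −0.06 and 0.24, the highest being between *iaa3* mock and wild type mock. They cannot decide whether the numbers pair the samples, since libraries may share a difference or not for other reasons. With the replicate block the interaction of *SAUR14* was called (−2.14, adjusted p = 0.0461, edgeR), as was the lower level of *SAUR9* in *iaa3* mock (−0.79, adjusted p = 0.0273, edgeR), and the counts became 6 and 7. *SAUR14* was also called with DESeq2 (adjusted p = 0.0143) and with no filter (adjusted p = 0.0448, edgeR), and *SAUR9* in mock with library size alone (−0.91). Library size alone moved the median of all genes by −0.10 with BL in wild type and by −0.12 for *iaa3* in mock.

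Changes of sign were seen in genes that were not called. With a library left out, the BL response in *iaa3* lay between −0.69 and 1.22 for *SAUR14*, between −0.33 and 1.11 for *SAUR6* and between −0.77 and 0.35 for *SAUR8*. For *SAUR8* it lay between −0.22 and 0.47 in wild type, and the interaction between −0.86 and 0.25. The BL response of *SAUR8* was also 0.34 in *iaa3* without both mock libraries of replicate 1, and −0.0094 in wild type with library size alone. The cause of these changes was not tested. At 3 counts or fewer, no size can be given for a BL response of *SAUR15*, *SAUR16*, *SAUR10* and *SAUR25* in *iaa3*.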
